A study of Mus musculus with 32 samples.

Results

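The genes described here are 7 bromodomain genes with the BRD name, Brdt, Brd1, Brd2, Brd3, Brd7, Brd8 and Brd9, chosen by symbol and matched by Ensembl identifier. All 7 were among the 20368 genes of the table of juvenile germ cells and among the 85537 genes of the adult table, and 49 transcripts of them were listed. RNA-seq had been carried out on germ cells of male C57BL/6J mice during the first wave of spermatogenesis, when successive stages of meiotic prophase appear in the testis with age. Of the 28 juvenile mice, 3 were taken 8 days postpartum (dpp), and every 2 days from 10 to 18 dpp another 5 were taken. The paper had sampled 5 mice at 8 dpp as well, but left out 2 of them that were unlike the others of that age. Each mouse, with both testes combined, was 1 sample of mixed germ cells released by enzymatic digestion. The 4 adult samples were enriched pachytene and diplotene spermatocytes, separated by sedimentation at unit gravity and each pooled from 6 mice of 9 weeks. No sample carried a mutation or a treatment, and age was the only labelled difference among the juvenile mice. Expression was in TPM, the abundance of transcripts relative to their length and to the library's total, so levels can be set side by side between genes, while the read depth behind a value is unknown.

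A bromodomain is a protein fold that binds acetylated lysine, most often on the tails of histones, and so brings a protein to active chromatin. BRDT, BRD2 and BRD3 are BET proteins, which carry a pair of bromodomains and an extraterminal domain. BET proteins work with P-TEFb, the kinase that releases paused RNA polymerase II. BRDT is the BET protein of male germ cells, known for its need in the meiotic expression programme and, later, for the compaction of chromatin in spermatids. The remaining members are subunits of larger machines: BRD1 is a scaffold of HBO1 and MOZ/MORF histone acetyltransferase complexes, BRD7 is a subunit of the PBAF remodelling complex, BRD9 marks the non-canonical BAF complex (ncBAF), and BRD8 belongs to the TIP60 acetyltransferase complex.

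In GENCODE release M21 on GRCm38, Brdt lay on the plus strand at chr5:107331159-107387058, and Brd3 on the minus strand at chr2:27445579-27507662. The sequence upstream of Brdt is shown first because Brdt changed more than any other member with age. It covers chr5:107330944-107331158 on the plus strand of GRCm38.p6, taken from RefSeq, and runs 5′ to 3′ up to the base before the first exon, leaving out the last 35 bases before the start that RefSeq gives. Capitals mark the letters of CACGTG, at -78 from the RefSeq start, and of CCAAT, at -61.
Brdt upstream: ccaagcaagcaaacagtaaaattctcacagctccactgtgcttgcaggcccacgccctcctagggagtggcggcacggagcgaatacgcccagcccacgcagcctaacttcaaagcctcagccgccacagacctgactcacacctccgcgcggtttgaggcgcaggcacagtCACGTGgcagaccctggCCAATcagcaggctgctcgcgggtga
The next pair shows where the 2 highest Brdt transcripts part. Both are on the plus strand, share the last 30 bases of exon 7 in lower case, and go on with the bases in capitals. Brdt-201 (ENSMUST00000031215), the full-length form, is spliced to the next exon and the stretch spans chr5:107350397-107356791. Brdt-202 (ENSMUST00000112677) reads on past the exon's end and reaches a stop codon after 12 coding bases, at chr5:107350397-107350441.
Brdt-201: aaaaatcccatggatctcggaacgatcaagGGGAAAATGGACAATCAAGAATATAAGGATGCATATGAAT
Brdt-202: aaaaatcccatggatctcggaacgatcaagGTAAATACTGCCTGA
The last pair shows the alternative coding exon of Brd3, since the usage of Brd3 transcripts differed with age. The exon, in capitals, has 51 bases on the minus strand at chr2:27453400-27453450, and the 15 bases on each side of it, in lower case, are joined directly in Brd3-202.
Brd3-206: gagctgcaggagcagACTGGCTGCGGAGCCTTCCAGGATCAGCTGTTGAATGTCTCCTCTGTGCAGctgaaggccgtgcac
Brd3-202: gagctgcaggagcagctgaaggccgtgcac

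Replicate mice were alike, with Pearson correlations of log2(TPM + 1) over all genes of 0.947 to 0.984 across the 53 possible pairs within ages. The pairs at the lower end joined 18 dpp mice 4 and 5 with 18 dpp mice 1 to 3 (0.947 to 0.959, against 0.976 to 0.979 within either set), and 57.9% of all genes did not overlap between these sets, against 20.1% to 30.3% at the ages of 10 to 16 dpp. Of the members, 4 of 7 did not overlap between the sets at 18 dpp, namely Brdt, Brd2, Brd3 and Brd9, each lower in mice 4 and 5. The summed TPM of 8 spermatocyte marker genes, all 8 higher at 18 than at 8 dpp, was 241 to 360 at 8 dpp and 4409 to 4586 in 18 dpp mice 1 to 3, but 3059 and 3073 in mice 4 and 5. Ldhc alone had a mean of 2396 TPM at 18 dpp, where the mean sum was 3935 TPM. The samples also held RNA of somatic cells. The 8 Sertoli cell markers, none of them at 0, summed to 6941 to 7825 TPM at 8 dpp and to 3271 to 4255 TPM at 18 dpp, with 7 of 8 lower. In the adult samples they summed to 296 to 435 TPM. Clu alone had a mean of 5377 TPM at 8 dpp, where the mean sum was 7308 TPM, and of 2899 TPM at 18 dpp, where it was 3690 TPM. By counting stained cells, the paper found each sample to be germ cells for the most part, and a sum of TPM is no count of cells. All 6 spermatogonium markers were lower at 18 dpp (568 to 668 against 233 to 312 TPM). Of the other marker lists, 3 of 4 germ cell genes, 3 of 6 Leydig and 4 of 5 macrophage genes were higher at 18 dpp and none lower. Elsewhere 1 of 5 peritubular genes was lower, endothelial genes had 1 of 4 each way, and none of 5 red blood cell genes was called. Genes needed at least 3 TPM in at least 1 mouse to be included. Ccna1 (spermatocyte), Lhcgr (Leydig), Adgre1 and Cx3cr1 (macrophage) were below that in every mouse of 8 dpp, so they were included only through older mice. The part that these cell types had in the members' values was not tested, and in mixed cells a change in the number of cells of a type and a change in RNA per cell cannot be told apart. The members' log2 differences from 8 to 18 dpp and their called steps from 16 to 18 dpp are therefore also given without mice 4 and 5.

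Over the 10 days from 8 to 18 dpp, Brdt rose by far the most of the members, Brd7, Brd8 and Brd9 rose by smaller amounts, Brd1 fell, and Brd2 and Brd3 did not pass the test. Ages were compared by limma on log2(TPM + 1), with an adjusted p under 0.05 over all 20368 genes as the threshold. Thus 4 of 7 members were higher at 18 dpp, where 31.8% of all genes were, and 1 of 7 was lower, where 36.3% of all genes were. Any difference among the 6 ages was called for 6 members, all but Brd2, against 77.6% of all genes. Being called was therefore usual in these data, and the members are set apart here by sizes and shapes of change, not by the calls. The median log2 difference was 0.40 over the 7 members and -0.09 over all genes. Without 18 dpp mice 4 and 5, Brd2 and Brd3 also passed, and 6 members were higher and 1 lower.

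**Figure D1:**
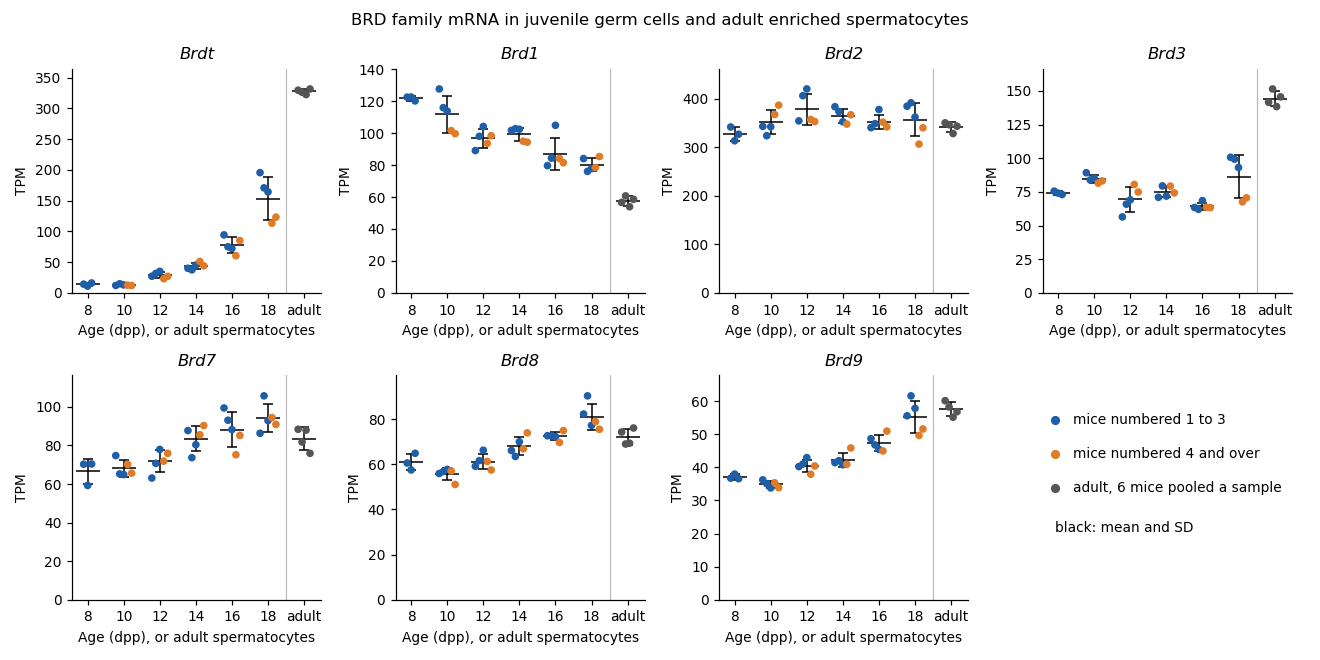
Level of each gene in TPM (vertical axes, from 0, a scale of its own for each gene) in every juvenile mouse by age in dpp and in the 4 adult samples; blue and orange points separate mice numbered 1 to 3 from later numbers, and black lines give mean and SD. Brdt climbs from 13.7 TPM at 8 dpp to 153 TPM at 18 dpp and 327 TPM in adult spermatocytes, Brd1 declines, and Brd2 stays between 307 and 420 TPM in every juvenile mouse.

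Brdt was the lowest of the 7 genes at the youngest ages. Its level was 14.2, 10.96 and 16.1 TPM in the 3 mice of 8 dpp and 12.03, 14.8, 12.97, 12.5 and 11.9 TPM in the 5 mice of 10 dpp, and these groups overlapped. At 12 dpp it was 27.01, 31.6, 34.96, 22.96 and 26.9 TPM. Every mouse of 12 dpp was above every younger mouse. At 14 dpp the mice had 39.95, 37.4, 45.2, 51.1 and 43.95 TPM, at 16 dpp 94.2, 74.9, 72.2, 60.4 and 85.1 TPM, and at 18 dpp 196, 171, 164, 113 and 123 TPM in mice 1 to 5. From 12 dpp on, no age overlapped with the age before it. The 18 dpp values again fell into the sets seen over all genes, since mice 1 to 3 lay at 164 TPM or above and mice 4 and 5 at 123 TPM or below, yet both sets were above all mice of 16 dpp. In the adult samples Brdt was at 329.6, 326, 322 and 332 TPM, above every juvenile mouse.

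As group means, Brdt went from 13.7 ± 2.57 TPM (SD, n = 3) at 8 dpp to 153 ± 34.3 TPM (SD, n = 5) at 18 dpp. The difference in log2(TPM + 1) was 3.38 (SE 0.1596, adjusted p = 8.07e-16), or 10.4-fold on the scale of TPM + 1. Without 18 dpp mice 4 and 5 the difference was 3.61, and it was called under each alternative and without each mouse in turn. The steps between neighbouring ages were unequal. There was no called step from 8 to 10 dpp, where the difference was -0.08 (SE 0.1596, adjusted p = 0.962). From 10 to 12 dpp Brdt rose by 1.09 (SE 0.138, adjusted p = 1.80e-06). From 12 to 14 dpp the difference was 0.59 (SE 0.138, adjusted p = 0.0677), which missed the threshold although the groups did not overlap, and it passed without 18 dpp mice 4 and 5 and without 12 dpp mouse 3, 14 dpp mouse 2, 16 dpp mouse 1 or 18 dpp mouse 4 in turn, as the 1 member then called. The last steps were 0.81 (SE 0.138, adjusted p = 8.02e-05) from 14 to 16 dpp and 0.96 (SE 0.138, adjusted p = 4.39e-06) from 16 to 18 dpp, the latter 1.19 without 18 dpp mice 4 and 5. In mice numbered 4 and over alone these last steps were 0.59 (adjusted p = 0.0571) and 0.71 (adjusted p = 0.0584), and neither passed. Brdt passed from above 53.3% of the genes of the table at 8 dpp to above 94.4% at 18 dpp. The adult mean was 327 ± 4.01 TPM (SD, n = 4), 2.14 times the mean at 18 dpp and above 97.3% of the genes in the adult samples. The adult cells came from another preparation and another table, so this ratio carries no test. The sum of the 8 spermatocyte markers, most of it Ldhc at 18 dpp, was 3059 to 4586 TPM at 18 dpp and 8351 to 8725 TPM in the adult samples. The markers were not compared singly between these groups. The 6 spermatid markers summed to 6.13 to 17.0 TPM at 18 dpp and to 872 to 1189 TPM in the adult samples.

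Of the 4 listed Brdt transcripts, none passed the rule for a change of usage, an adjusted p under 0.05 and a shift of at least 20 points of the gene's TPM. Brdt-201 held 56.5% ± 5.88 (SD, n = 3) of Brdt at 8 dpp and 47.5% ± 3.25 (SD, n = 5) at 18 dpp, with an adjusted p of 0.0754 by limma. Brdt-202, the short form that ends after the bases shown above, held 32.2% ± 2.50 (SD, n = 3) and 39.9% ± 1.81 (SD, n = 5), with an adjusted p of 0.1503. In TPM, Brdt-201 had means of 7.67 at 8 dpp and 72.5 at 18 dpp, and Brdt-202 had means of 4.41 and 61.5. Both forms together made up 86.4% of Brdt over the 28 mice. Gm8152, a processed pseudogene on the opposite strand within Brdt, reached at most 0.89 TPM. The sources used here do not state whether the libraries kept the strand, so reads of such overlapping genes cannot be told apart.

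Brd2 (chr17:34112023-34122634, minus strand), a BET gene expressed in nearly all cells, was the highest of the 7 genes at each age. The mice of 8 dpp had 342, 314 and 327 TPM, and those of 18 dpp had 385, 392, 362, 307 and 340.4 TPM. The youngest mice lay inside the range of the oldest, and the lowest value of 18 dpp was mouse 4. Across all 28 mice Brd2 spanned only 307 to 420 TPM, and the highest mean, 378 ± 32.4 TPM (SD, n = 5), was at 12 dpp. The log2 difference from 8 to 18 dpp was 0.12 (SE 0.0731, adjusted p = 0.148). It passed the threshold without 18 dpp mice 4 and 5, at 0.21 (adjusted p = 0.00812), without mouse 4 alone, at 0.17 (adjusted p = 0.0272), and when the libraries were rescaled by median-of-ratios factors, at 0.30 (adjusted p = 0.00487). That rescaling moved the median of all genes from -0.09 to 0.05 for this comparison. In the adult samples Brd2 was at 351, 347, 329 and 344 TPM. No step between neighbouring ages was called for Brd2. Its main transcript, Brd2-202, held 51.2% of the gene at 8 dpp and 60.0% at 18 dpp, a change of 8.80 points (adjusted p = 0.00980) that was under the 20 points required. H2-DMa and an antisense gene overlap Brd2 on the opposite strand, and H2-DMa reached at most 8.02 TPM.

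Brd3, also a BET gene, changed direction with age. It had 75.6, 74.1 and 73.1 TPM in the mice of 8 dpp and 89.2, 83.9, 85.2, 81.5 and 83.1 TPM in those of 10 dpp. At 12 dpp it had 56.4, 65.9, 69.1, 80.6 and 74.95 TPM. All 5 mice of 12 dpp lay below all 5 of 10 dpp, a fall of -0.29 (SE 0.0919, adjusted p = 0.0229), which was lost without 10 dpp mouse 1 (adjusted p = 0.0576), 12 dpp mouse 1 (0.0876) or 12 dpp mouse 2 (0.0507), and with no filter on low values (0.0642). Mice 1 to 3 of 12 dpp all lay below mice 4 and 5 of that age. In mice numbered 4 and over alone the fall was -0.08 (adjusted p = 0.460). At 14 dpp the values were 70.99, 79.5, 71.9, 79.3 and 74.3 TPM and at 16 dpp 63.4, 62.1, 68.5, 63.5 and 63.4 TPM. These groups did not overlap, but the difference of -0.22 (SE 0.0919, adjusted p = 0.0762) missed the threshold. On this step 2 members, instead of Brd1 alone, were called lower under quantile normalization, without 18 dpp mice 4 and 5 and without 18 dpp mouse 4. At 18 dpp Brd3 had 101, 99.3, 93.1, 67.6 and 70.6 TPM. Mice 1 to 3 were then at 93.1 TPM or above, and mice 4 and 5 at 67.6 and 70.6 TPM, of which mouse 4 lay within the range of 16 dpp. The rise from 16 to 18 dpp was 0.40 (SE 0.0919, adjusted p = 0.000666), and 0.60 (adjusted p = 1.72e-07) without mice 4 and 5. In mice numbered 4 and over alone it was 0.12 (adjusted p = 0.229). From 8 to 18 dpp the difference was 0.19 (SE 0.106, adjusted p = 0.107), and it passed at 0.39 (adjusted p = 0.000152) without 18 dpp mice 4 and 5, at 0.28 (adjusted p = 0.0151) without mouse 4 and at 0.26 (adjusted p = 0.0277) without mouse 5. Under median-of-ratios factors it was 0.37 (adjusted p = 0.00856). The adult samples had 142, 152, 138 and 146 TPM, a mean 1.67 times that of 18 dpp, with no test.

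Of the Brd3 transcripts, the 1 with the largest increase from 16 to 18 dpp has its own first exon. This transcript, Brd3-209 (ENSMUST00000154316), starts in a 173-base exon at chr2:27507490-27507662, 32 kb upstream of the start of Brd3-202, and is the only listed Brd3 transcript with that exon. It was listed at 0 in all 13 mice of 8, 10 and 12 dpp. At 14 dpp it had 2.06, 1.36, 0, 3.73 and 0 TPM, at 16 dpp 10.2, 9.94, 0, 1.64 and 8.38 TPM, and at 18 dpp 43.2, 40.9, 40.9, 13.1 and 7.29 TPM in mice 1 to 5. Mice 1 to 3 of 18 dpp were each above every mouse of 16 dpp, and mouse 5 was not. The other 9 Brd3 transcripts summed to 74.2 ± 1.26 TPM (SD, n = 3) at 8 dpp, 58.2 ± 6.92 TPM (SD, n = 5) at 16 dpp and 57.2 ± 4.22 TPM (SD, n = 5) at 18 dpp, a sum chosen after its values were seen. Thus from 16 to 18 dpp the mean of Brd3-209 went from 6.02 to 29.1 TPM while that of the rest, in sum, stayed within its spread. Within that sum the means went both ways, with Brd3-203 going from 8.00 to 14.9 TPM, Brd3-210 from 5.55 to 7.92 TPM, Brd3-202 from 34.4 to 27.5 TPM and Brd3-206 from 7.01 to 3.34 TPM. These single forms were not tested between 16 and 18 dpp.

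**Figure D2:**
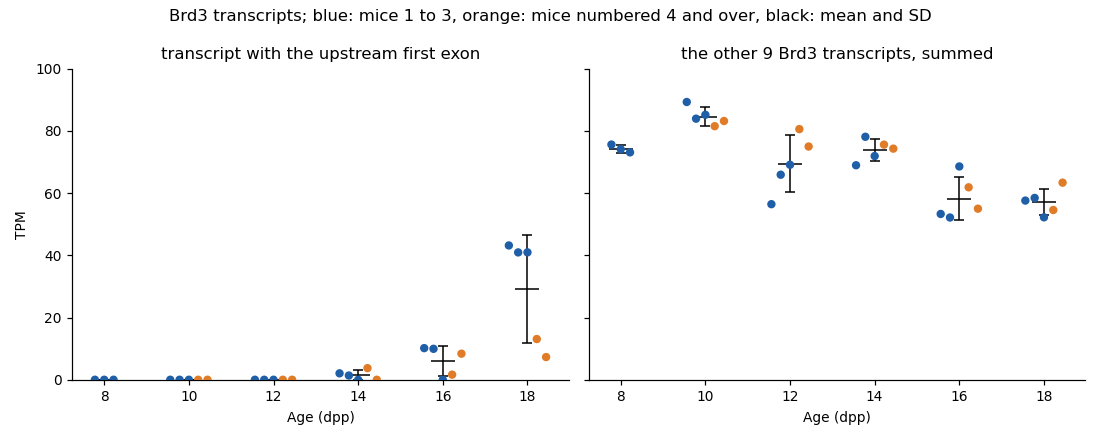
TPM of Brd3-209, the transcript with the upstream first exon (left), and of the other 9 Brd3 transcripts summed (right), in each juvenile mouse by age in dpp on the same vertical scale; black lines give mean and SD, and colours separate mice 1 to 3 from later numbers. Brd3-209 is at 0 in all mice up to 12 dpp and reaches 40.9 to 43.2 TPM in 18 dpp mice 1 to 3, while the remaining transcripts go from 74.2 TPM at 8 dpp to 57.2 TPM at 18 dpp.

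As a share of the gene, Brd3-209 went from 0% at 8 dpp to 31.5% ± 15.6 (SD, n = 5) at 18 dpp (SE 5.33 points, adjusted p = 0.000197 by limma). The difference was 42.7 points without 18 dpp mice 4 and 5. At 18 dpp the shares were 42.8%, 41.2%, 44.0%, 19.3% and 10.3% in mice 1 to 5. The SE and p rest on 1 spread shared by the 6 ages, which the mice at 0 up to 12 dpp make smaller. They therefore do not measure the spread at 18 dpp. Brd3-206 (ENSMUST00000138693) went the other way, from 26.8% ± 4.44 (SD, n = 3) to 4.73% ± 10.6 (SD, n = 5), a change of -22.1 points (adjusted p = 0.0178), or -26.8 points without 18 dpp mice 4 and 5. It was at 0 in 18 dpp mice 1 to 4 and at 23.6% in mouse 5. Its call was lost without 8 dpp mouse 1, at -19.6 points (adjusted p = 0.0870), or mouse 2, at -22.6 points (adjusted p = 0.0502). These were the 2 calls among 35 member transcripts tested, in the 6 members with more than 1 listed transcript, against 3.67% of the 27124 transcripts tested over all genes. Brd3-206 and Brd3-209 have the same 11 coding blocks, both include the 51-base exon shown above, and both models are incomplete at the 3′ end, so they differ in the files by their first exon. Estimates for such like forms share reads, and the split between them is uncertain. Over the 3 transcripts that include the exon and the 3 that span it without, the included share was 50.4% ± 7.02 (SD, n = 3) at 8 dpp, 28.4% ± 2.45 (SD, n = 5) at 12 dpp and 55.8% ± 9.18 (SD, n = 5) at 18 dpp. This share was chosen after its values were seen and carries no test. The mice of 12 dpp, at 25.7% to 31.0%, lay below those of both 8 dpp (42.6% to 56.3%) and 18 dpp (43.3% to 65.0%).

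Set against each other, these 3 BET genes shifted towards Brdt. Of the summed TPM of Brdt, Brd2 and Brd3, Brdt held 3.29% ± 0.554 (SD, n = 3) at 8 dpp and 2.87% ± 0.393 (SD, n = 5) at 10 dpp. It then held 6.00% ± 0.630 (SD, n = 5) by 12 dpp, 9.01% ± 1.22 (SD, n = 5) by 14 dpp, 15.7% ± 2.52 (SD, n = 5) by 16 dpp and 25.5% ± 2.37 (SD, n = 5) by 18 dpp. In the adult samples it held 40.2% ± 0.536 (SD, n = 4). The shares at 8 and 10 dpp overlapped, and from 12 dpp on no age overlapped with the age before. At 18 dpp the share was 28.7%, 25.8%, 26.5%, 23.2% and 23.1% in mice 1 to 5, again lowest in mice 4 and 5, and its mean was 27.0% without them. Brd2 held 78.8% at 8 dpp, 60.2% at 18 dpp and 42.1% in the adult samples, and Brd3 held 17.9%, 14.4% and 17.7%. The summed TPM of the 3 genes was 416 ± 16.5 (SD, n = 3) at 8 dpp, 597 ± 83.3 (SD, n = 5) at 18 dpp and 814 ± 16.6 (SD, n = 4) in the adult samples.

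**Figure D3:**
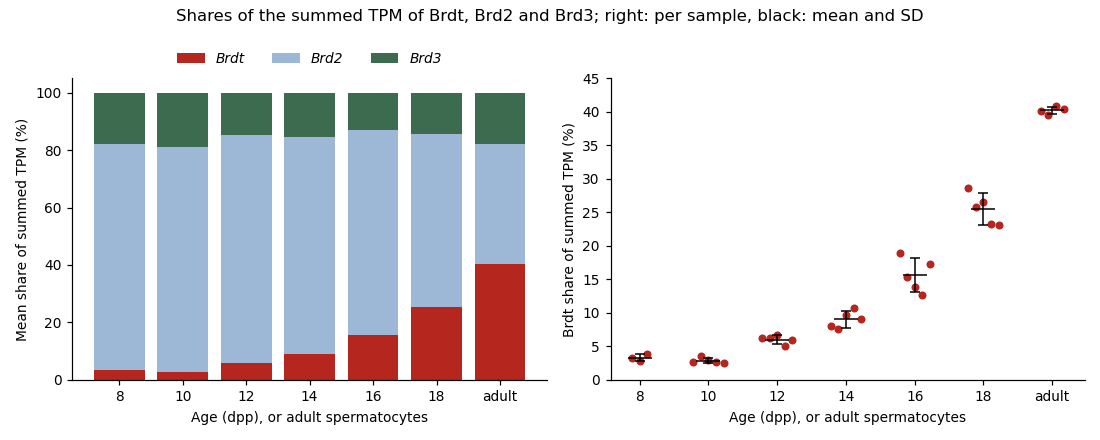
Left, mean share in percent of the summed TPM of Brdt, Brd2 and Brd3 held by each gene, by age in dpp and in adult spermatocytes; right, the Brdt share of the same sum in each sample, with black lines for mean and SD. The Brdt share goes from 3.29% at 8 dpp to 25.5% at 18 dpp and 40.2% in the adult samples.

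The list of P-TEFb genes covers the kinase and its regulators with which BET proteins work. Of these, 2 of 6 were higher at 18 dpp and 3 lower, where 31.8% of all genes were higher and 36.3% lower. Their median log2 difference was -0.26, against -0.09 over all genes. The largest rise was that of Larp7, a part of the complex that holds P-TEFb inactive (64.4 to 233 TPM, 1.79 (SE 0.154, adjusted p = 7.57e-11)). The largest fall was that of Ccnt2, which encodes a cyclin subunit of the kinase (41.3 to 25.3 TPM, -0.69 (SE 0.0962, adjusted p = 4.98e-07)).

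Brd1 (chr15:88687034-88734233, minus strand) was the 1 member that fell over the whole period. Its level was 122, 123 and 120.2 TPM in the mice of 8 dpp and 84.05, 76.03, 77.9, 78.4 and 85.3 TPM in those of 18 dpp. Every mouse of 8 dpp was above every mouse of 18 dpp, with a log2 difference of -0.60 (SE 0.0787, adjusted p = 1.91e-07), or -0.61 without 18 dpp mice 4 and 5. Between these ages the mice of 10 dpp had 128, 116, 114, 102 and 99.6 TPM, those of 12 dpp 89.1, 98.01, 104, 93.6 and 98.4 TPM, those of 14 dpp 102, 103, 102, 94.9 and 94.3 TPM and those of 16 dpp 79.6, 84.3, 105, 84.1 and 81.5 TPM. Neighbouring ages overlapped throughout, and at 10 and 14 dpp the mice numbered 4 and over lay below mice 1 to 3. The falls from 10 to 12 dpp, -0.20 (SE 0.0682, adjusted p = 0.0328), and from 14 to 16 dpp, -0.20 (SE 0.0682, adjusted p = 0.0370), passed the threshold narrowly. The first was lost without 10 dpp mouse 1, 2 or 3 or 12 dpp mouse 1 or 4, with adjusted p up to 0.125, and the second without 14 dpp mouse 1, 2 or 3 or 16 dpp mouse 1, 2, 4 or 5, with adjusted p up to 0.112. The first was also lost with no filter on low values (adjusted p = 0.0785) and with only the 2 ages in the fit (adjusted p = 0.0667). The second was also lost with no filter, under median-of-ratios factors, with one prior variance for all genes, with only the 2 ages in the fit, with the mouse number as a block and in mice 1 to 3 alone, with adjusted p from 0.0531 to 0.153. Both falls were lost in mice numbered 4 and over alone (adjusted p = 0.532 and 0.0671). The adult samples had 56.6, 60.7, 53.9 and 58.5 TPM, below every juvenile mouse, and a mean 0.715 times that of 18 dpp. Brd1-203 and Brd1-202 made up 95.5% of the gene, with no called change of usage. Of 9 listed genes of HBO1 and MOZ/MORF complexes, 6 were lower at 18 dpp and 2 higher, where 36.3% of all genes were lower and 31.8% higher. Their median was -0.29, against -0.09 over all genes. The list also holds scaffolds other than BRD1, namely Jade1, Jade2 and Jade3, and these were among the lower genes. It is therefore not a list of partners of BRD1 alone. Jade3, a scaffold of the HBO1 complex, had the largest fall (113 to 61.1 TPM, -0.88 (SE 0.0776, adjusted p = 1.26e-10)), and Kat7, its acetyltransferase, the largest rise (119.8 to 210.3 TPM, 0.78 (SE 0.111, adjusted p = 5.53e-07)).

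Brd7 (chr8:88331039-88362194, minus strand) rose slowly, without a called step between any neighbouring ages. It had 70.3, 59.3 and 70.4 TPM at 8 dpp and 86.3, 106, 92.9, 94.5 and 90.95 TPM at 18 dpp. The groups did not overlap, with a log2 difference of 0.49 (SE 0.0868, adjusted p = 1.55e-05), or 0.50 without 18 dpp mice 4 and 5. The means between were 68.2, 71.9, 83.5 and 88.2 TPM in the order of the ages, and each age overlapped with the next. The adult samples, with 88.4, 81.8, 88 and 75.9 TPM, overlapped with those of 18 dpp. Brd7-201 and Brd7-207 made up 92.4% of the gene. Of the 12 other PBAF genes, some of which ncBAF also holds, 5 were higher at 18 dpp and 5 lower. Over all genes 31.8% were higher and 36.3% lower. The median was 0.10, against -0.09 over all genes. Arid2, which encodes the AT-rich interaction domain subunit that defines PBAF, had the largest rise (39.8 to 119.9 TPM, 1.54 (SE 0.1295, adjusted p = 4.83e-11)), and Smarcd3, one of several alternative SMARCD subunits, the largest fall (37.5 to 23.8 TPM, -0.67 (SE 0.154, adjusted p = 0.000380)). The Smarcd3 values of 8 dpp (32.5 to 40.7 TPM) and 18 dpp (18.0 to 33.6 TPM) overlapped.

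Brd9 (chr13:73937811-73960895, plus strand) rose after 10 dpp and had, after Brdt, the largest rise of the 7 genes. Its level was 36.7, 37.95 and 36.5 TPM at 8 dpp and 36.2, 35.04, 33.8, 35.3 and 33.9 TPM at 10 dpp. At 12 dpp it was 40.2, 40.97, 42.9, 37.9 and 40.4 TPM, and only mouse 4 of 12 dpp lay within the range of 8 dpp. The rise from 10 to 12 dpp was 0.21 (SE 0.0553, adjusted p = 0.00678), with no overlap, and under median-of-ratios factors its adjusted p was 0.0536. In mice numbered 4 and over alone this rise was 0.17 (adjusted p = 0.280). At 14 dpp the values were 41.4, 41.99, 40.8, 40.9 and 45.8 TPM, at 16 dpp 48.6, 46.8, 45.4, 44.9 and 50.9 TPM and at 18 dpp 55.5, 61.6, 57.8, 49.6 and 51.5 TPM. Neighbouring ages overlapped here, with differences of 0.16 (SE 0.0553, adjusted p = 0.0330) from 14 to 16 dpp and 0.22 (SE 0.0553, adjusted p = 0.00193) from 16 to 18 dpp, the latter 0.30 without 18 dpp mice 4 and 5. The former was lost with no filter on low values (adjusted p = 0.0528) and without 14 dpp mouse 1, 2, 3 or 6 or 16 dpp mouse 1 or 5, with adjusted p up to 0.104. In mice numbered 4 and over alone neither was called, at 0.14 (adjusted p = 0.320) and 0.08 (adjusted p = 0.600). Over the whole period the log2 difference was 0.56 (SE 0.0639, adjusted p = 1.53e-08), or 0.64 without 18 dpp mice 4 and 5, with no overlap between 8 and 18 dpp. The adult samples had 60.1, 58.2, 55.1 and 56.8 TPM, which overlapped with 18 dpp. The single listed transcript carried all of Brd9, and an antisense gene, Gm41002, overlaps it. The 11 other ncBAF genes went the opposite way for the most part, with 8 lower and 1 higher, where 36.3% of all genes were lower and 31.8% higher. Their median was -0.45, against -0.09 over all genes. Bcl7a, a small accessory subunit, had the largest fall (14.9 to 4.52 TPM, -1.53 (SE 0.1098, adjusted p = 2.14e-12)), and its relative Bcl7b was the 1 that rose (37.5 to 67.3 TPM, 0.82 (SE 0.0965, adjusted p = 2.66e-08)).

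Brd8 (chr18:34598615-34624601, minus strand) had 60.6, 57.5 and 64.9 TPM at 8 dpp and 82.3, 90.3, 77.3, 78.9 and 75.5 TPM at 18 dpp, which did not overlap. The log2 difference was 0.40 (SE 0.0628, adjusted p = 2.93e-06), or 0.44 without 18 dpp mice 4 and 5. Its means from 10 to 16 dpp were 55.7, 61.2, 68.1 and 72.4 TPM, in the order of the ages. The only called step was from 16 dpp (72.7, 72.6, 72.3, 69.7 and 74.9 TPM) to 18 dpp, 0.15 (SE 0.0544, adjusted p = 0.0188), or 0.20 without 18 dpp mice 4 and 5, and the groups of this step did not overlap. This call was lost without 18 dpp mouse 2, at 0.11 (adjusted p = 0.0783), under quantile normalization, at 0.08 (adjusted p = 0.158), and with only the 2 ages in the fit, at 0.15 (adjusted p = 0.0517). It was also lost in mice numbered 4 and over alone, at 0.09 (adjusted p = 0.498). The adult samples had 74.3, 69.01, 69.4 and 76.1 TPM. Of the 8 listed Brd8 transcripts, Brd8-202 and Brd8-203 made up 77.1% of the gene, and no usage change reached 20 points. Of the partner lists, that of the other genes of TIP60, the acetyltransferase complex that holds BRD8, had the most rises. In it 10 of 16 were higher at 18 dpp and 4 lower, where 31.8% of all genes were higher and 36.3% lower. The median was 0.44, against -0.09 over all genes. Mrgbp, which encodes a subunit that binds the MRG proteins, had the largest rise (55.8 to 144 TPM, 1.35 (SE 0.105, adjusted p = 1.03e-11)), and Trrap, the large scaffold of the complex, the largest fall (185 to 123 TPM, -0.59 (SE 0.0977, adjusted p = 6.23e-06)).

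**Figure D4:**
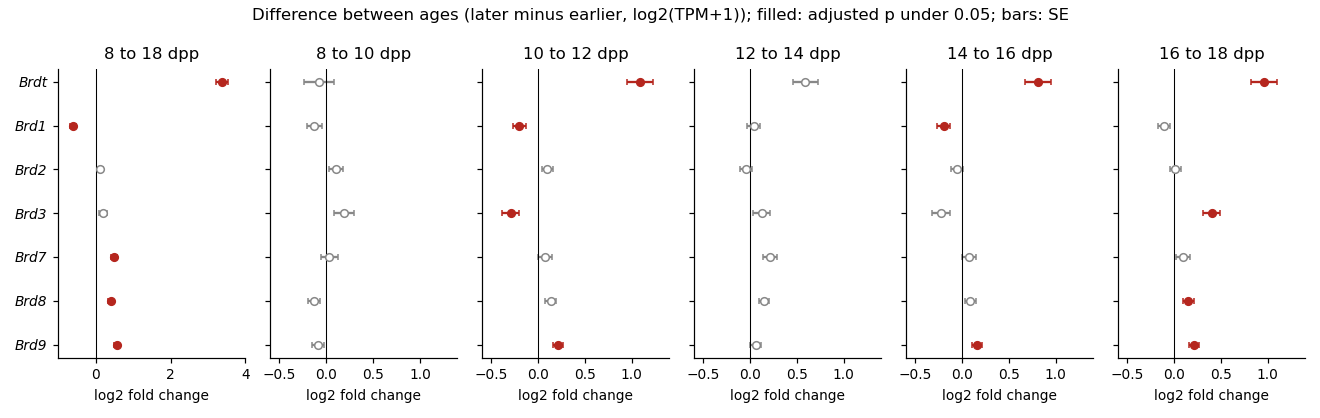
Log2 difference on the log2(TPM + 1) scale (horizontal axes, later minus earlier age) of each gene from 8 to 18 dpp and for the 5 steps between neighbouring ages; bars give the SE, and filled red points have an adjusted p under 0.05. Brdt stands at 3.38 over the whole period and at 1.09, 0.59, 0.81 and 0.96 for the steps from 10 dpp on, whereas every step of the other genes lies between -0.29 and 0.40.

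Read by step, the members' calls gathered at the ages where all genes changed. From 8 to 10 dpp no member was called, and none had an unadjusted p under 0.05, where 0.977% of all genes were called higher and 0.226% lower by limma. From 10 to 12 dpp Brdt and Brd9 were higher and Brd1 and Brd3 lower, against 12.0% of all genes higher and 9.39% lower. From 12 to 14 dpp none of the 7 was called by limma, although 3 (Brdt, Brd7 and Brd8) had an unadjusted p under 0.05, and 0.157% of all genes were called higher and 0.0147% lower. From 14 to 16 dpp Brdt and Brd9 were higher and Brd1 lower, against 12.7% higher and 11.3% lower over all genes. From 16 to 18 dpp Brdt, Brd3, Brd8 and Brd9 were higher and none was lower, against 23.4% higher and 30.6% lower. The values of neighbouring ages did not overlap for Brd3 and Brd9 from 8 to 10 dpp (11.0% of all genes), for Brdt, Brd3 and Brd9 from 10 to 12 dpp (17.7%), for Brdt from 12 to 14 dpp (2.25%), for Brdt and Brd3 from 14 to 16 dpp (18.1%) and for Brdt and Brd8 from 16 to 18 dpp (25.5%). Between 8 and 18 dpp the values did not overlap for 5 of the 7 members, as for 61.0% of all genes.

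The order of the 7 genes by level turned over with age, mostly through Brdt. At 8 dpp it ran from Brd2 (328 TPM) through Brd1 (122), Brd3 (74.2), Brd7 (66.7), Brd8 (61.0) and Brd9 (37.1) to Brdt (13.7), and of the neighbours in that order only Brd7 and Brd8 overlapped. Brdt was the lowest up to 12 dpp, overlapped with Brd9 at 14 dpp, and was the fourth at 16 dpp, where it overlapped with Brd1 above it and Brd8 below it. At 18 dpp it was the second, with 153 TPM, and overlapped with neither Brd2 above (357) nor Brd7 below (94.1). Brd7, Brd3 (86.3), Brd8 (80.9) and Brd1 (80.3) followed, each overlapping with the next, and Brd9 (55.2) was last. In the adult samples Brd2 (342) and Brdt (327) overlapped, followed by Brd3 (144), then by Brd7 (83.5) and Brd8 (72.2), which overlapped with each other, and by Brd9 (57.5) and Brd1 (57.4), which also overlapped. The summed level of the 7 genes was 702 ± 23.5 TPM (SD, n = 3) at 8 dpp, 907 ± 91.8 TPM (SD, n = 5) at 18 dpp and 1085 ± 20.1 TPM (SD, n = 4) in the adult samples.

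Among 32 further bromodomain genes, 30 were in the table, and 20 of these were lower at 18 than at 8 dpp, 6 were higher (7 without 18 dpp mice 4 and 5) and 4 were not called, where 36.3% of all genes were lower and 31.8% higher. Their median log2 difference was -0.49, against 0.40 over the 7 members and -0.09 over all genes. Brdt had a larger rise than any of the 30 genes. Next came Baz1a, a subunit of chromatin assembly and remodelling factors (24.3 to 106 TPM, 2.04 (SE 0.169, adjusted p = 3.77e-11)), Sp100, of nuclear bodies (0.573 to 3.84 TPM, 1.58 (SE 0.244, adjusted p = 2.36e-06)), and Baz2a, a subunit of a nucleolar remodelling complex (63.5 to 107 TPM, 0.73 (SE 0.121, adjusted p = 6.85e-06)). Sp100 was low, at 0.36 to 0.73 TPM in the mice of 8 dpp and 2.07 to 6.06 TPM in those of 18 dpp. Genes needed at least 3 TPM in at least 1 mouse to be included, so Sp100 was included only through older mice. Its p is therefore no support for a rise. The largest falls were those of Crebbp, a histone acetyltransferase (38.9 to 18.5 TPM, -1.04 (SE 0.101, adjusted p = 7.61e-10)), Cecr2, a remodelling factor subunit (61.4 to 31.3 TPM, -0.97 (SE 0.129, adjusted p = 2.00e-07)), and Kmt2a, a histone methyltransferase (20.8 to 10.2 TPM, -0.96 (SE 0.126, adjusted p = 1.51e-07)). Brd1, at -0.60, was the only member among the falls.

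**Figure D5:**
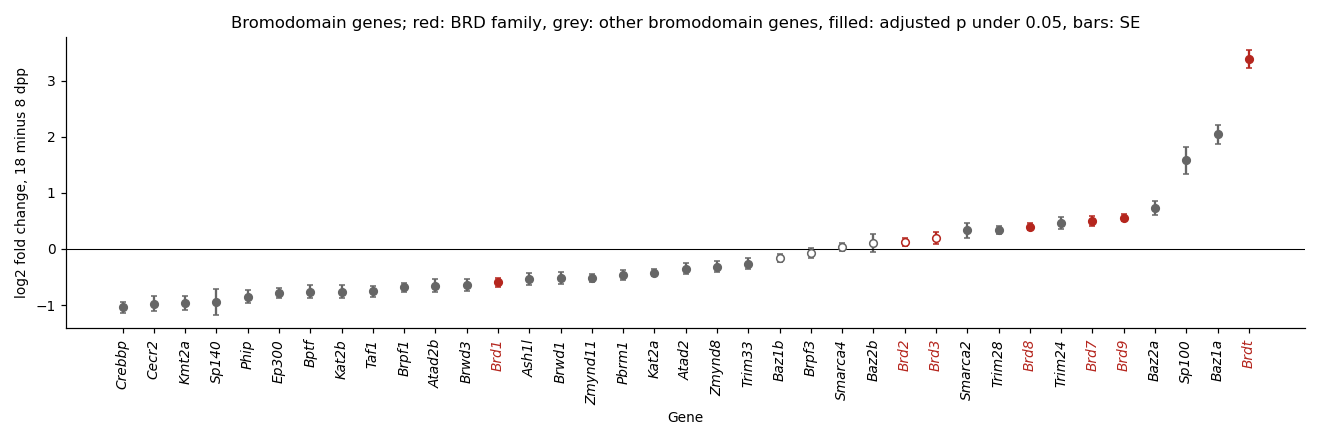
Log2 difference from 8 to 18 dpp (vertical axis, 18 minus 8 dpp on the log2(TPM + 1) scale) of the 7 members in red and 30 further bromodomain genes in grey, ordered by value; bars give the SE, and filled points have an adjusted p under 0.05. Brdt is at the far right with 3.38, Baz1a follows with 2.04, and 20 of the 30 other genes are called lower.

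Genes whose level over the 28 mice was most like that of each member were looked up by Pearson's r of log2(TPM + 1), as a description over samples that share their ages. For Brdt they were Clgn (r = 0.994), Hsf5 (r = 0.993) and Morc2b (r = 0.992), where Clgn encodes a testis chaperone and Hsf5 a heat shock factor of spermatocytes. For Brd1 they were Ep300 (r = 0.957), Arid1a (r = 0.950) and Tiam1 (r = 0.950), of which Ep300 is a bromodomain acetyltransferase and Arid1a a BAF subunit. For Brd2, which varied little, the values were lower: Tmem127 (r = 0.728), Ppp1r10 (r = 0.715) and Zfp273 (r = 0.634). Brd3 was nearest to Fem1b (r = 0.893), Hipk3 (r = 0.831) and Baz2b (r = 0.830), the last another bromodomain gene. Brd7 was nearest to Tagap1 (r = 0.920), Ints13 (r = 0.913) and Xrcc2 (r = 0.912), Brd8 to Spag5 (r = 0.948), Kif24 (r = 0.942) and Rimklb (r = 0.942), and Brd9 to Sugp2 (r = 0.975), Ift122 (r = 0.974) and Dnm2 (r = 0.972).

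The bases upstream of the members' starts, as RefSeq gives them on GRCm38.p6, were available for 6 of the 7 genes in 9 entries of 250 bases each. There was none for Brd8 and none for the upstream first exon of Brd3-209. The Brd3 entry covers chr2:27475399-27475648 and is not the start of Brd3-209. All were rich in G and C, with 56.4% to 73.6%, against a median of 52.4% over 32851 promoters. The Brdt window had 62.4% and 16 CpG dinucleotides, more than 74.6% of all promoters, and that of Brd3 had 73.2% and 37 CpG. Searched on both strands for the TATA box TATAAA, the CCAAT box itself, the GC box GGGCGG, the E-box CACGTG, the cyclic AMP response element TGACGTCA and the STRA8 motif CNCCTCAG (N being any base), none of which overlapped another in the Brdt window, the Brdt window held 1 match each of CACGTG and CCAAT, the capitals above, and no GGGCGG. Over all promoters 6.02% held CACGTG and 33.8% CCAAT. No other member's window held either motif, and each of Brd1, Brd2, Brd3, Brd7 and Brd9 had a window with GGGCGG, which 32.7% of all promoters held. Matches are descriptions of letters and not of binding. TATAAA and TGACGTCA, held by 12.4% and 1.55% of all promoters, were in none of the 9 windows, and CNCCTCAG, held by 6.42%, was in 1 of the Brd2 entries.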

How the data were processed

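Germ cells of 28 juvenile mice and 4 adult pools of enriched spermatocytes were analysed. The authors prepared poly-A libraries, aligned reads with Bowtie 1.0.0 to Ensembl, NONCODE and piRNA precursor transcripts, and estimated TPM with RSEM 1.2.8, on mm10 per the labels. The deposited transcript table and adult gene table hold TPM. The deposited juvenile gene table holds another quantity, exp(log2(TPM + 1)) - 1, and was converted back to TPM here. For 20288 of its 20368 genes, each with at least 3 TPM in at least 1 mouse, no mouse then differed by over 0.2 TPM from the sum over the gene's transcripts. TPM keeps no read counts, so depth and counting error are unknown, and p-values rest on the spread between mice.

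Ages were compared with limma 3.58.1 (R 4.3.3) on log2(TPM + 1), a scale that understates changes of low genes, with 6 ages in 1 model, a variance prior that depends on the mean level, and Benjamini-Hochberg adjustment over all genes. Transcript usage was tested with limma on percentages of gene TPM between 8 and 18 dpp, in genes of at least 3 TPM and transcripts of at least 1 TPM. The scripts were tested on simulated data. Python 3.11.15 with pandas 2.3.3 was used otherwise.

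The 7 genes, the partner, bromodomain and marker lists and the tests were chosen with earlier results of these data known. Text names all members, the 3 largest rises and falls of the bromodomain list among genes whose mice did not overlap, the largest rise and fall of each partner list, the 3 genes nearest to each member, and the main or called transcripts. Alternatives covered the pseudocount (0.1 or 0.5), the filter, the scaling, the variance prior, the choice of ages in the fit, a block for the mouse number, subsets of mice and leaving out each sample in turn. A further version of the share of Brdt is not reported here.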

Additional observations from a re-analysis of the deposited data

Results flagged for a closer look

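In 6 of 56 groups of 4 or 5 samples examined, the highest or lowest sample lay farther from the rest than Dixon's 95% limit, which chance alone would give in about 1 of 20 groups. At 16 dpp, mouse 3 had the highest Brd1 level, 105 TPM against 84.3 TPM in the nearest mouse, and the highest Brd3 level, 68.5 TPM against 63.5 TPM. At 10 dpp, mouse 5 had the lowest Brd8 level, 51.1 TPM against 56.0 TPM in the nearest mouse. At 14 dpp, mouse 7 had the highest Brd9 level, 45.8 TPM against 42.0 TPM, and mouse 3 had the highest share of Brd3-206 in Brd3, 34.3% against 24.1%. At 18 dpp, mouse 5 had 23.6% of Brd3 in Brd3-206, while the other 4 mice were at 0.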

How the results depend on the processing

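The calls of Brdt, Brd7, Brd8 and Brd9 as higher and of Brd1 as lower at 18 than at 8 dpp held under each alternative and without each mouse in turn, and no value turned its direction under any of them. The members' 15 other single values gave 179 pairs of a value and a setting, leaving out single mice aside, of which 23 lost and 6 gained a call, in 12 of the 15 values. For single steps the numbers of members called moved. Called higher from 10 to 12 dpp were 2, but 1 under median-of-ratios factors and 1 in mice numbered 4 and over alone. Called lower from 10 to 12 dpp were 2, but 0 with no filter on low values, 1 with only the 2 ages compared and 0 in mice numbered 4 and over alone. Called higher from 12 to 14 dpp was none, but 1 with 18 dpp mice 4 and 5 left out. Called higher from 14 to 16 dpp were 2, but 1 with no filter and 0 in mice numbered 4 and over alone. Called lower from 14 to 16 dpp was 1, but 0 under median-of-ratios factors, with no filter, with one prior variance for all genes and in mice 1 to 3 alone, and 2 under quantile normalization and with 18 dpp mice 4 and 5 left out. Called higher from 16 to 18 dpp were 4, but 0 in mice numbered 4 and over alone, and called lower was none, but 1 under quantile normalization. The smaller sets have fewer mice, no filter adds genes to the adjustment, and the cause of the other moves was not tested. Leaving out 1 mouse at a time gave 0 to 2 members lower from 10 to 12 dpp, 0 to 1 higher from 12 to 14 dpp, 1 to 2 higher and 0 to 2 lower from 14 to 16 dpp, and 1 to 2 member transcripts of changed usage. The adult Brdt mean was 333 TPM when rescaled to the genes of both tables. The subsets of mice numbered 4 and over and without 18 dpp mice 4 and 5 were chosen after seeing the data, and the former, lacking mice of 8 dpp, gave no comparison with that age.

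Mouse numbers recur across ages but marked no pairs: over 57 pairs of mice with the same number, correlations of deviations from the age means ran from -0.248 to 0.253. With the replicate block, 0 members were called lower from 14 to 16 dpp (Brd1 at -0.21, adjusted p = 0.0780), and no other call count of the members moved by over 1.5 times.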
